A study of Homo sapiens with 6 samples.

Results

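The B-lineage transcription factors described here were 10 genes, namely TCF3, TCF4, EBF1, PAX5, FOXO1, LEF1, BACH2, IRF4, IRF8 and POU2AF1. Their probes were taken from the catalogue part of the array, as every catalogue probe whose RefSeq accession belongs to one of these genes. This gave 13 probes of 10 genes, among 19721 genes named on the 34134 catalogue probes and 57176 probes of all kinds on the array. EBF1 had 3 probes, BACH2 had 2 and the other genes had 1 each.

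Expression was profiled in REH cells, a line derived from human B-cell precursor acute lymphoblastic leukemia (BCP-ALL). REH cells harbor ETV6/RUNX1 and have lost their other ETV6 allele. The control group was 3 cultures with a non-targeting shRNA and the knockdown group was 3 cultures with an shRNA against ETV6/RUNX1. Per the study's methods both shRNAs had been bought against ETV6, the one that does not hit the fusion transcript served as the control, and both groups were transduced with a lentivirus carrying GFP and sorted for GFP. Each arm thus rests on 1 hairpin in 1 cell line, and the study calls the 3 cultures of a group biological triplicates.

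B-cell identity is set by a small circuit of DNA-binding proteins. The E proteins TCF3 and TCF4 act early, TCF3 together with FOXO1 switches on EBF1, EBF1 switches on PAX5, and PAX5 then holds the cell in the B lineage while silencing genes of other lineages. LEF1 acts at the precursor stage, and BACH2, IRF4, IRF8 and the coactivator POU2AF1 (OBF1) act there and again in mature B cells. The ETV6/RUNX1 fusion protein keeps the DNA-binding domain of RUNX1, a factor that works alongside these proteins in lymphoid progenitors.

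Because that domain reads a short DNA word, the promoters of the factors were searched for the letters TGTGGT or TGCGGT on both strands, from 250 bases before to 50 bases after each RefSeq transcription start (build GRCh38.p14). The table used held 19 starts for 9 of the 10 genes, of which 10 belong to TCF4 and 2 to IRF8, and POU2AF1 had no entry. The letters were present at 2 of these 19 starts, against 19.6% of all 35116 promoters of the same 300-base length. They were found at LEF1, 57 bases before the start, and at 1 of the 2 IRF8 starts, 134 bases before it, while none of the 10 TCF4 starts held them. A match is a description of letters and not of binding, and its absence from these windows says nothing about the fusion protein elsewhere. The 250 bases before the start are printed 5′ to 3′ along the gene for these 2 promoters and for the most upstream TCF4 start, since TCF4 was the factor that changed, with the searched letters in capitals. TCF4 lies on the minus strand at chr18:55635958-55636207, LEF1 on the minus strand at chr4:108166302-108166551 and IRF8 on the plus strand at chr16:85902580-85902829.
TCF4: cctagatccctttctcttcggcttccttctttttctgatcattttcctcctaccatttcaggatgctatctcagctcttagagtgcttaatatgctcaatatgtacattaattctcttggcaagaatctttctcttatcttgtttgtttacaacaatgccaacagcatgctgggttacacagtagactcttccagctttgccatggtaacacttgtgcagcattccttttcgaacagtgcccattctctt
LEF1: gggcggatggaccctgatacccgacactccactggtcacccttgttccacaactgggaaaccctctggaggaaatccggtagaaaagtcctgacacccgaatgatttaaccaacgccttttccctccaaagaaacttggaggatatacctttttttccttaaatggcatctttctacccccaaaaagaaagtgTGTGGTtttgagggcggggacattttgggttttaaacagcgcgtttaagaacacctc
IRF8: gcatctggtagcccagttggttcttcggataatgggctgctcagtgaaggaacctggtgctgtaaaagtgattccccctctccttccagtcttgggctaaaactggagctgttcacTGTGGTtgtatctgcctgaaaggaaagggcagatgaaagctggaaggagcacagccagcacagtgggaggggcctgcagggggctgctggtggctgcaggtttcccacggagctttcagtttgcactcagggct

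All 13 probes passed the filter on dim probes and were well above background on all 6 arrays, so each of the 10 factors gave a signal in REH cells. Levels are on a generalised log2 scale, on which a difference of 1 is a doubling for bright probes and somewhat more than a doubling for dim ones. Brightness depends on the probe as well as on its transcript, so levels are compared between groups for 1 probe and never between probes. A probe is said to be called where limma's adjusted p (Benjamini-Hochberg, over all 27389 retained probes) was under 0.05. Of all retained probes 1.75% were called, and of the retained catalogue probes 1.68%, 0.502% higher and 1.18% lower in knockdown cells. Of the 13 probes of the B-lineage factors 1 was called, that of TCF4, which was lower. The other 12 were not called, 9 of the 13 had a log2 fold change above 0 against 49.9% of all retained catalogue probes, and their median was 0.11 in a range from -0.92 to 0.48. In bulk RNA, fewer cells of a type and less RNA per cell cannot be told apart.

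**Figure D1:**
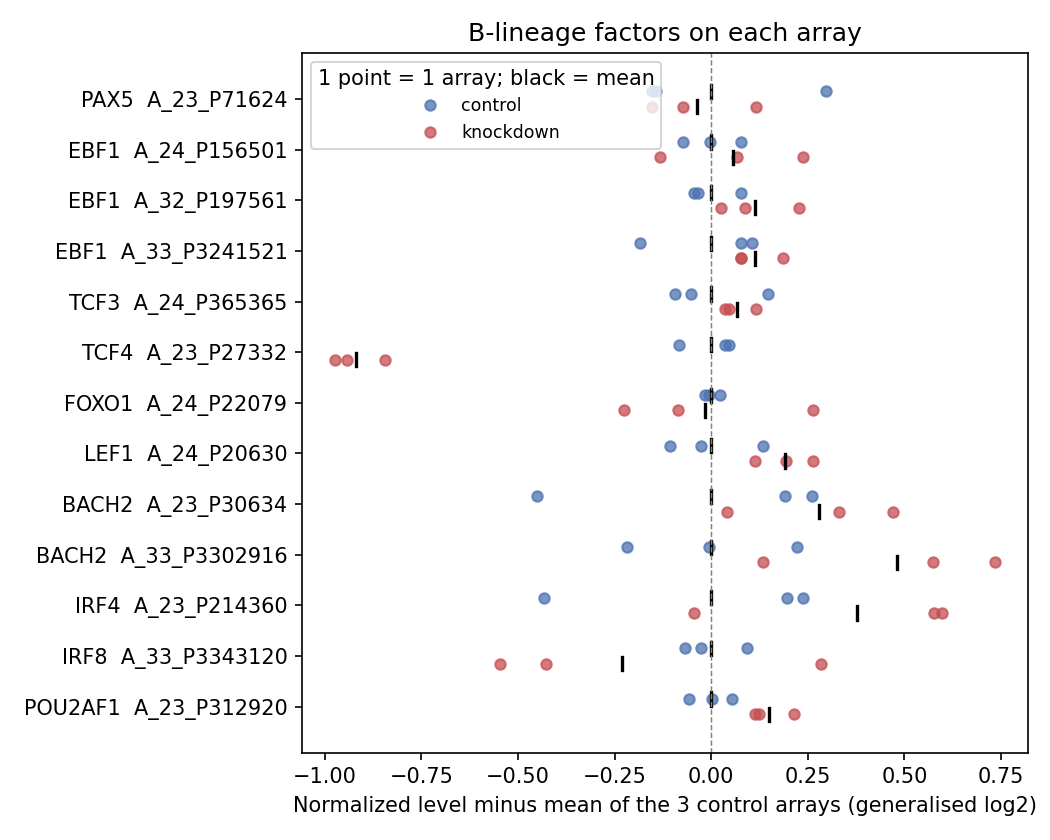
Normalized level of each B-lineage factor probe on each array, as the difference on the generalised log2 scale from the mean of the 3 control arrays. Blue points are control arrays, red points knockdown arrays and black ticks group means (n = 3 each), and the 3 TCF4 knockdown points lie apart from all others at about -0.92.

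The targeted transcript was checked first. One ETV6 probe was at 7.92, 8.05 and 8.37 on the control arrays and at 7.50, 7.46 and 7.29 on the knockdown arrays, so that its log2 fold change was -0.70 (SE 0.14, n = 3 per group). The groups did not overlap, but with an adjusted p of 0.0511 in limma the probe was not called. A second ETV6 probe passed the background flag on none of the 6 arrays, and the 5 RUNX1 probes, which may read both RUNX1 and the fusion, had log2 fold changes from -0.26 to 0.03 with none called.

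Among the E proteins, TCF4 fell and TCF3 was not called. TCF4 (E2-2), an E protein also known for its part in plasmacytoid dendritic cells, had levels of 13.94, 14.06 and 14.07 on the control arrays and of 13.18, 13.05 and 13.08 on the knockdown arrays. Every knockdown array lay below every control array, and within each group the arrays spanned far less than the gap between them. The log2 fold change was -0.92 (SE 0.10, 95% interval -1.14 to -0.70, n = 3 per group), a 1.90-fold lower level, with a limma adjusted p of 0.00325. The differences by replicate number were -0.76, -1.01 and -0.99. In an exact permutation test of this probe p was 0.1, which is the lowest value 3 arrays against 3 can reach. Scaling on the spike-in controls, which moved the median of all probes to 0.36, gave -0.56 (adjusted p = 0.153), so the call is of a fall relative to the bulk of the probes.

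TCF3 (E2A), the E protein that starts the B-cell program, was at 14.64, 14.88 and 14.68 in control cells and at 14.77, 14.85 and 14.78 in knockdown cells. The groups overlapped, and the log2 fold change was 0.07 with a 95% interval from -0.17 to 0.31, and 0.02 to 0.14 with 1 array left out. Whether the TCF4 and TCF3 differences themselves differ was not tested, since they come from different probes.

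**Figure D2:**
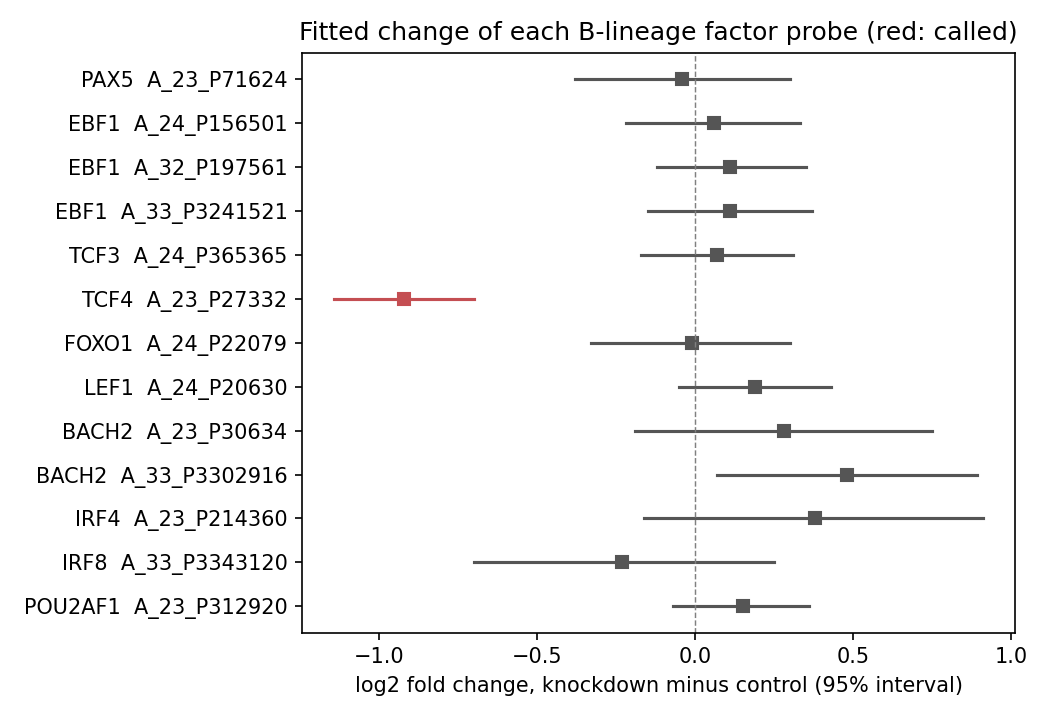
Log2 fold change of each B-lineage factor probe, knockdown minus control, with its 95% interval from limma (n = 3 arrays per group). The TCF4 interval, in red, runs from -1.14 to -0.70, and of the 12 others, in grey, only that of BACH2 probe A_33_P3302916 leaves out 0.

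EBF1 and PAX5, the factors that specify and commit B cells, were not called on any of their 4 probes. EBF1 probe A_24_P156501 was at 11.85, 11.93 and 11.78 in control cells and at 12.09, 11.92 and 11.72 in knockdown cells, a log2 fold change of 0.06 (95% interval -0.22 to 0.33). Probe A_32_P197561 was at 13.41, 13.30 and 13.29 against 13.56, 13.36 and 13.42, a log2 fold change of 0.11 (-0.12 to 0.35). Probe A_33_P3241521 was at 10.45, 10.71 and 10.74 against 10.82, 10.71 and 10.71, also 0.11 (-0.15 to 0.37). The groups overlapped on all 3 probes, and none of their 95% intervals reached above 0.37 on the log2 scale.

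PAX5 (A_23_P71624) was at 7.88, 7.43 and 7.44 in control cells and at 7.70, 7.51 and 7.43 in knockdown cells. Replicate 1 was the highest of its group in both groups, and the groups overlapped. The log2 fold change was -0.04 (95% interval -0.38 to 0.30), a value whose sign turned under 7 of 17 other settings without a call. The PAX5 probe stood 1.72 above the background threshold in control cells.

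FOXO1, a forkhead factor that is held inactive by PI3K and AKT signalling and that drives the recombinase genes, was at 11.66, 11.67 and 11.70 in control cells. The knockdown arrays spread wider, at 11.94, 11.45 and 11.59, with replicate 1 above and the other two below every control array. The log2 fold change of -0.01 (95% interval -0.33 to 0.30) was not called. LEF1, a partner of beta-catenin that is expressed in B-cell precursors, was at 15.49, 15.73 and 15.57 against 15.79, 15.86 and 15.71. These groups overlapped by 1 knockdown array, and the log2 fold change of 0.19 (-0.05 to 0.43) was not called.

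BACH2, a repressor that supports negative selection at the pre-B-cell receptor checkpoint and restrains plasma cell genes, gave 2 probes above 0 without a call. Probe A_33_P3302916 was at 7.86, 8.30 and 8.07 in control cells and at 8.21, 8.65 and 8.81 in knockdown cells, where the lowest knockdown array lay below the highest control array. Its log2 fold change was 0.48 (95% interval 0.07 to 0.89), with an unadjusted limma p of 0.0275 and an adjusted p of 0.312. Probe A_23_P30634 was at 10.60, 11.31 and 11.24 against 11.09, 11.38 and 11.52, a log2 fold change of 0.28 (-0.19 to 0.75) with overlapping groups, which was 0.05 without control replicate 1 and 0.41 without control replicate 2. An unadjusted p under 0.05 was reached by 2 of the 13 probes, those of TCF4 and BACH2 probe A_33_P3302916, against 12.5% of all retained catalogue probes. With spike-in scaling that BACH2 probe was called higher (adjusted p = 0.0255).

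IRF4 and IRF8 share the task of moving pre-B cells from proliferation to light-chain rearrangement. IRF4 was at 8.46, 9.13 and 9.09 in control cells and at 8.85, 9.49 and 9.47 in knockdown cells. Replicate 1 was the lowest array in both groups, so the groups overlapped although the differences by replicate number were close to each other, at 0.39, 0.36 and 0.38. The log2 fold change was 0.38 (95% interval -0.16 to 0.91) with an adjusted p of 0.564, and it was not called either with the replicate number as a block (adjusted p = 0.0710). It was 0.16 without control replicate 1 and 0.59 without knockdown replicate 1. IRF8 was at 7.32, 7.16 and 7.20 against 7.51, 6.80 and 6.68, with knockdown replicate 1 above and the others below all control arrays. Its log2 fold change of -0.23 (-0.70 to 0.25) was not called, and it ran from -0.49 without knockdown replicate 1 (adjusted p = 0.0778) to -0.07 without knockdown replicate 3.

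POU2AF1, a coactivator of the octamer-binding proteins, was at 14.39, 14.34 and 14.28 in control cells and at 14.55, 14.45 and 14.46 in knockdown cells. The groups did not overlap, as also for TCF4, which makes 2 of 13 probes against 19.3% of all retained catalogue probes, and 1 of 13 higher against 9.41%. The POU2AF1 log2 fold change of 0.15 (95% interval -0.07 to 0.36) was not called.

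Genes whose levels followed TCF4 most closely over the 6 arrays included NCKAP1, a subunit of the WAVE actin-regulating complex (r = 0.998), HGSNAT, a lysosomal enzyme (0.998), GIMAP4, an immune-associated GTPase (0.997), and LARP7, which binds the 7SK RNA (0.996). With 2 groups of arrays such a correlation mostly restates the group difference, and 233 of 17534 named probes had r over 0.95 with TCF4. Of these, NCKAP1 (log2 fold change -0.87), GIMAP4 (-1.50) and HGSNAT were called, while LARP7 (-0.14, adjusted p = 0.566) was not. The HGSNAT signal was well above background on 0 of 3 knockdown arrays, so its 1.43-fold lower level rests on knockdown signal near background. It passed the filter on dim probes only through the control group, where it was higher, so its call supports nothing on its own.

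Genes that these factors act with or on were followed in 8 lists, whose 102 retained probes stand for 80 genes. Of these probes 10 were called, standing for 8 genes, that is 9.8% against 1.68% of all retained catalogue probes. The lists were written with results of these arrays known, so this share is a description and not a test. The probe of EBF3, that of BANK1 and the second of PRDM1 passed the filter on dim probes only through the control group, where they were higher, a filter that favours a difference, so these 3 of the 10 calls support nothing on their own. SPIB, BLK, FCRLA and NKD2 rose, and PRDM1, ID2, BANK1 and EBF3 fell, relative to the bulk of the probes.

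**Figure D3:**
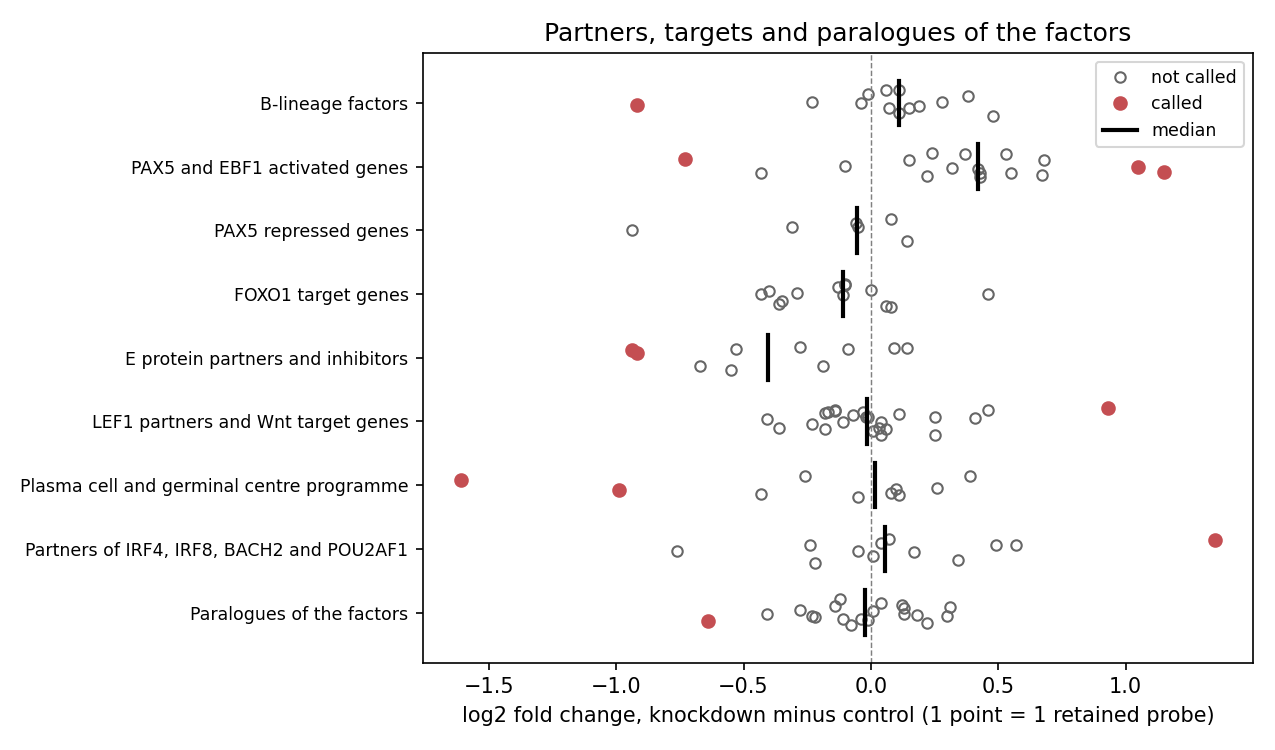
Log2 fold change, knockdown minus control, of every retained probe of the B-lineage factors and of the 8 lists of genes they act with or on, 1 row per list. Filled red points were called, open points were not, and the black line is the median of the row, which lies at 0.42 for the genes activated by PAX5 and EBF1 and at -0.40 for the E protein partners and inhibitors.

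Genes activated by PAX5 and EBF1 were mostly above 0. Of 17 retained probes of 13 genes, 14 had a log2 fold change above 0 and the median was 0.42, against -0.0004 for all retained catalogue probes. Of these, 2 were called higher and 1 lower, against 0.502% and 1.18% of all retained catalogue probes. An unadjusted p under 0.05 was found for 12 (12.5% of all retained catalogue probes), and 12 had groups that did not overlap (19.3%). BLK, a Src-family kinase of the B-cell receptor, was at 11.15, 11.24 and 11.18 in control cells and rose to 12.36, 12.41 and 12.26. This was a 2.23-fold rise (log2 fold change 1.15, SE 0.09, limma adjusted p = 0.00109). FCRLA, an intracellular Fc receptor-like protein of B cells, rose by 1.05 on one probe (adjusted p = 0.00849), from 6.88, 7.09 and 7.11 to 8.08, 7.86 and 8.29. A second FCRLA probe, well above background on 1 control array, was at 6.90, 5.40 and 5.57 against 6.29, 5.97 and 6.32 and was not called (0.24, adjusted p = 0.834).

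BANK1, a B-cell adaptor of receptor signalling, went the other way, from 6.29, 6.16 and 6.28 to 5.68, 5.45 and 5.41. It was well above background on 3 control arrays and on 1 knockdown array, and its log2 fold change of -0.73 had an adjusted p of 0.0171. The knockdown values lay below the threshold of the filter, and the size depended on the background correction, at -0.40 with normexp and quantile normalization and -1.94 with the processed signal. The uncalled genes of lowest p were CD22, an inhibitory receptor (0.67, adjusted p = 0.0540), CD79B, a signalling chain of the B-cell receptor (0.55, 0.166), and IGLL1, the surrogate light chain, which has close relatives in the lambda locus (0.53, 0.173). With the replicate number as a block, all of these 3 were called, at adjusted p = 0.0264, 0.0357 and 0.0377. CD22 was called in 6 of 17 alternatives, among them without control replicate 1 (0.81, adjusted p = 0.0185). The BANK1 call was lost without any 1 of control replicates 1, 2 or 3 or knockdown replicates 2 or 3, with adjusted p from 0.0581 to 0.0872.

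Genes that PAX5 silences showed no call on 6 retained probes of 5 genes (median -0.05, 2 probes with an unadjusted p under 0.05). CCL3, a chemokine, had a log2 fold change of -0.94 (adjusted p = 0.0598, and 0.0348 with the replicate block), from 7.46, 7.01 and 6.65 to 6.04, 6.19 and 6.07. It was also called without control replicate 3 (-1.13, adjusted p = 0.0251). NOTCH1, the receptor that directs T-cell fate, was at -0.31 on one probe and 0.08 on the other, and CD28, a T-cell costimulator, at 0.14.

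FOXO1 target genes were not called on any of 13 retained probes of 12 genes (median -0.11), and 2 had an unadjusted p under 0.05. These were RAG2, a subunit of the V(D)J recombinase (log2 fold change -0.43, adjusted p = 0.191), and IRS2, an insulin receptor substrate (-0.40, 0.335).

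The partners and inhibitors of E proteins lay mostly below 0. Of 10 retained probes of 9 genes, 8 had a log2 fold change below 0, while 49.9% of all retained catalogue probes were above 0. The median was -0.40, and 2 were called lower, against 1.18% of all retained catalogue probes. Both were probes of ID2, which pairs with E proteins and keeps them from DNA. One was at 10.21, 9.93 and 9.89 in control cells and at 9.00, 9.09 and 9.19 in knockdown cells, and the log2 fold change was -0.92 (SE 0.12) at a limma adjusted p of 0.00905. The other was at 9.12, 8.81 and 8.70 against 7.98, 7.98 and 7.85, a log2 fold change of -0.94 (adjusted p = 0.0116). ID2 fell beside its partner TCF4, by 1.89-fold and 1.91-fold on its 2 probes. The first ID2 call was lost without knockdown replicate 2 (adjusted p = 0.0512), and the second without control replicate 2 or knockdown replicates 2 or 3 (0.0540 to 0.0675).

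ID3, a further E protein inhibitor, was at 12.60, 13.22 and 13.04 against 11.52, 12.68 and 12.66, and its log2 fold change of -0.67 (95% interval -1.39 to 0.06) was not called and was -0.28 without knockdown replicate 1. LMO2, a bridging protein of E protein complexes, was at -0.55 (adjusted p = 0.374, and 0.0458 with the replicate block). LDB1, which binds LMO2, was at -0.19 and was not called.

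Among LEF1 partners and Wnt target genes, 1 of 24 retained probes was called. NKD2, an inhibitor of Dishevelled in Wnt signalling, rose from 11.60, 11.65 and 11.56 to 12.68, 12.48 and 12.43 (log2 fold change 0.93, SE 0.10, limma adjusted p = 0.00506). TLE2, a corepressor that LEF1 recruits, was at 0.46 (adjusted p = 0.136, and 0.0482 with the replicate block). APC, part of the complex that degrades beta-catenin, was at -0.36 (0.180), and LGR5, an R-spondin receptor, at 0.41 (0.250). The median of the list was -0.02.

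In the plasma cell and germinal centre list, PRDM1 (BLIMP1), the master regulator of plasma cells and a gene that BACH2 restrains, fell on both of its probes. The first was at 7.64, 8.00 and 7.71 in control cells and at 6.00, 6.22 and 6.28 in knockdown cells, a 3.06-fold fall (log2 fold change -1.61, SE 0.13, limma adjusted p = 0.00109). The second fell from 6.64, 6.77 and 6.61 to 5.49, 5.91 and 5.67 (-0.99, adjusted p = 0.00878) and was well above background on 1 knockdown array. With normexp and quantile normalization the first was at -1.07 and the second at -0.56, and with the processed signal the second was at -1.95. The call of the second was lost without control replicate 2 (adjusted p = 0.0545) or knockdown replicate 3 (0.0534). The other 8 of 10 retained probes were not called. CD38 was at 0.39 (adjusted p = 0.402) and SDC1, the plasma cell surface proteoglycan, at -0.43 (0.474, and 0.0497 with the replicate block). CIITA, the regulator of MHC class II genes, was at -0.26 on one probe (0.311) and at -0.05 on the other (0.898).

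Among the DNA-binding partners of IRF4, IRF8, BACH2 and POU2AF1, 1 of 12 retained probes was called. SPIB, an ETS factor that IRF4 and IRF8 bind DNA with, rose from 9.60, 9.51 and 9.75 to 10.97, 11.05 and 10.90. This was 2.55-fold (log2 fold change 1.35, SE 0.10, limma adjusted p = 0.00101). Its relative SPI1 (PU.1) was at 11.01, 11.10 and 11.14 against 11.92, 11.55 and 11.48, and its log2 fold change of 0.57 was not called (adjusted p = 0.101). MAFK, a small MAF protein that pairs with BACH2, was at 0.49 (0.110, and 0.0493 without knockdown replicate 1) and BATF3 at 0.34 (0.247). The median of the list was 0.06, with 8 probes above 0 and 4 below, among these BATF (-0.76, adjusted p = 0.301).

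Paralogues of the factors were called on 1 of 20 retained probes of 14 genes, with a median of -0.03. EBF3, a relative of EBF1, was at 5.93, 5.85 and 5.81 in control cells and at 5.19, 5.28 and 5.20 in knockdown cells. It was well above background on 2 control arrays and on no knockdown array. Its level was 1.56-fold lower (limma adjusted p = 0.0155), a fold that rests on knockdown signal near background. Its log2 fold change of -0.64 became -0.28 with normexp and quantile normalization and -1.83 with the processed signal, and its call was lost without any 1 of control replicates 1, 2 or 3 or knockdown replicates 2 or 3 (0.0555 to 0.0966). TCF7L2 was at -0.41 (0.309), IRF2 at 0.31 (0.336) and IRF3 at 0.30 (0.351), none called.

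**Figure D4:**
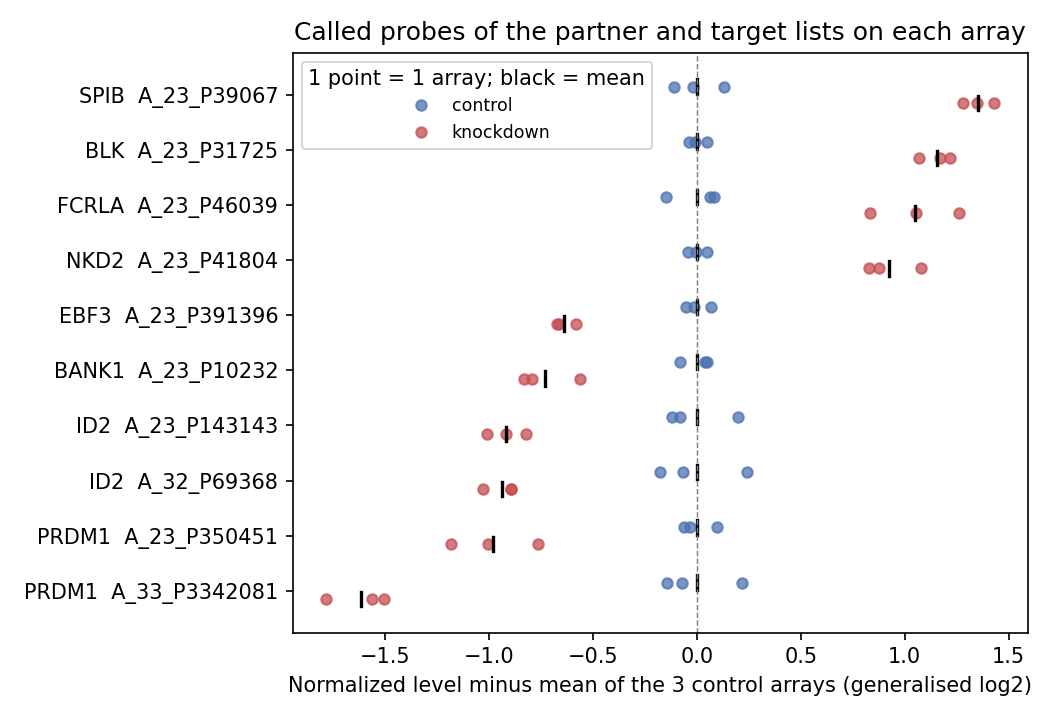
Normalized level of the 10 called probes of the lists on each array, as the difference on the generalised log2 scale from the mean of the 3 control arrays. Blue points are control arrays, red points knockdown arrays and black ticks group means (n = 3 each), and on each of these probes the knockdown points lie apart from the control points.

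Markers of the lineage were read beside these values. Of 14 probes for B-cell precursor markers, 12 were well above background on all arrays, and the 2 that were not were both for VPREB1, a surrogate light chain. All 12 retained ones had a log2 fold change above 0 (median 0.35, none called), against 49.9% of all retained catalogue probes. The summed level of the 14 was 17.78 to 17.89 in control cells against 18.10 to 18.26 in knockdown cells. Of 7 myeloid marker probes, 4 were well above background on all arrays and those of CEBPA, ELANE and FCGR3A on none. Their summed level, to which MPO gives the most, was 14.07 to 14.30 in control cells against 12.08 to 12.68. Of the 4 retained probes 2 were called lower, against 1.18% of all retained catalogue probes. They were those of MPO, the granule peroxidase (log2 fold change -2.02, adjusted p = 0.00109), and CSF3R, the G-CSF receptor (-1.58, 0.0390). CD14 (-0.13, 0.681) and CSF1R (-0.05, 0.924) were not called. The part of these shifts in the values of TCF4, ID2, PRDM1 or the PAX5 and EBF1 target genes was not tested.

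The summed level of plasma cell markers, to which XBP1 gives the most, was 15.12 to 15.36 in control cells against 15.18 to 15.49 in knockdown cells. PRDM1 is one of them, but its dim probes add too little to the sum for their fall to show there. T-cell markers were at 8.96 to 9.57 against 8.95 to 9.47, with 2 of 9 probes well above background on all arrays and those of CD3E, CD3G and CD7 on none. Erythroid markers were at 9.66 to 9.74 against 9.64 to 9.81, with 4 of 7 probes well above background on all arrays. Of 8 NK-cell marker probes 7 passed the background flag on none of the arrays, and the summed level was 8.69 to 8.75 against 8.91 to 9.25.

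All 6 arrays lay on 1 slide and were read in 1 scan, and the share of probes flagged well above background was 45.9 to 51.0%, lowest on control replicate 3. Control replicates 1 and 2 lay in the first row of the slide and the other 4 arrays in the second. With slide row as a term, the knockdown arrays are compared with control replicate 3 alone, which is assumed to vary like the other arrays. The TCF4 log2 fold change was then -0.97 (adjusted p = 0.0394), and BLK, SPIB and the first PRDM1 probe were called too. ID2 (adjusted p = 0.139 and 0.166), the second PRDM1 probe (0.120), FCRLA (0.120), NKD2 (0.0521), BANK1 (0.147) and EBF3 (0.210) were not.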

How the data were processed

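Cy3-labelled RNA was hybridised to 6 custom one-color Agilent arrays, 3 per group. The authors extracted spot intensities with Feature Extraction 10.7.1.1. Each of the deposited array files holds the raw median intensity, a processed intensity, and other values, namely flags for outliers, saturation and signal above background. The authors also deposited normalized log2 values of 27869 probes. Per the methods these had been background-subtracted, variance-stabilized (VSN) and filtered against negative controls.

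The VSN model (an affine calibration of each array and an inverse hyperbolic sine, fitted with the 0.9 quantile of least squares kept) was written anew and run on the raw median intensity, since the files used here give no mean intensity. Spots flagged as outliers were dropped and none was saturated. Repeat spots were averaged to 1 value per probe. Probes were kept if they exceeded the 0.95 quantile over 308 negative control spots by a factor of 1.1, both on the normalized scale, on 60% or more of a group's arrays (2 of 3). This left 27389 probes, of which 21518 were catalogue probes. Of the 27389, 478 were called (127 higher, 351 lower), or 1.75%. Values on single arrays correlated with the deposited log2 values at r from 0.99904 to 0.99969.

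Knockdown was tested against control in R 4.3.3 using limma 3.58.1 (lmFit, eBayes, two-sided), as the study's methods name limma and no block, with Benjamini-Hochberg adjustment over all retained probes. Same-numbered arrays of the groups deviated together (r = 0.4267, 0.288 and 0.2038 for numbers 1, 2 and 3), so the numbers pair the cultures by these data. The number of arrays limits the precision. The scripts were tested on simulated data.

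Genes were assigned from accessions through a RefSeq table, which named 75.4% of catalogue probes. The members and lists were chosen with earlier results of these data known. Named were all 10 factors, each called gene of a list, up to 3 uncalled list genes of lowest p, and the 5 genes most like TCF4. The probe of lowest p stood for a gene, with others given where they disagree. Some genes that this rule names are not reported here. The marker genes were named after their values were seen. Alternatives were other background corrections, scalings, filters, model settings and left-out arrays.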

Additional observations from a re-analysis of the deposited data

How the results depend on the processing

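The TCF4 call held in 16 of 17 alternatives and was lost under spike-in scaling. One B-lineage factor probe was called in every alternative, TCF4 in all except spike-in scaling, where it was BACH2 instead. BLK, SPIB and the first PRDM1 probe were called in all 17. For the fit with the replicate number as a block, 1035 probes were called (371 higher, 664 lower), which include all 478, and 21 list probes. Beside the calls given with their results, the block changed no other call of a named gene. Spike-in scaling called 1047 probes (897 higher, 150 lower, against 127 and 351) and 17 list probes, and the calls of ID2 (adjusted p = 0.154 and 0.147), the second PRDM1 probe (0.123), BANK1 (0.268) and EBF3 (0.371) were lost, while CD22 (0.00245), SPI1 (0.00940), CD79B (0.0112), IGLL1 (0.0137), MAFK (0.0239), TLE2 (0.0313) and LGR5 (0.0474) were called higher. Slide row as a term called 227 probes and 4 list probes, and with no filter on dim probes 223 were called. Leaving out 1 array at a time called 192 (without control replicate 2) to 547 (without knockdown replicate 1) probes and 6 to 11 list probes. The causes were not tested. A filter on the raw intensity, chosen after seeing the data, left 422 probes called.

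None of the log2 fold changes that turned sign was called. Under spike-in scaling these were PAX5 (0.32), FOXO1 (0.35), IRF8 (0.13), NOTCH1 (0.05), LDB1 (0.17), CIITA (0.10) and APC (0.01). PAX5 (-0.12 to 0.11 with 1 array left out) also turned with normexp and quantile normalization (0.01), the processed signal (0.00), slide row (0.11), both replicate 1 arrays left out (0.04), and without control replicate 1 (0.11) or knockdown replicate 3 (0.02). FOXO1 (-0.15 to 0.09 with 1 array left out) turned with the processed signal (0.03) and without control replicate 3 (0.00), knockdown replicate 2 (0.09) or 3 (0.02). EBF1 (-0.03 to 0.15, 0.06 to 0.16 and 0.02 to 0.17 on its 3 probes with 1 array left out) turned with both replicate 1 arrays left out (-0.04 and -0.02) and without knockdown replicate 1 (-0.03), and CD28 with slide row (-0.05). With 1 array left out, the uncalled values of CD38 (0.20 without control replicate 1), SDC1 (-0.23 without knockdown replicate 1), LMO2 (-0.35 without control replicate 1), LDB1 (-0.09, the same), CD28 (0.07, the same), IRF2 (0.19 without knockdown replicate 3) and TCF7L2 (-0.27, the same) also moved by over 1.5 times. BANK1 and EBF3 were also lost with normexp and quantile normalization (adjusted p = 0.0543 and 0.142) and with no filter (0.0561 and 0.0501). An intensity trend and robust prior called CD22 (0.0339) and CCL3 (0.0461), and CD22 passed with normexp (0.0363) and with both replicate 1 arrays left out (0.0114).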

Other observations

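The custom part of the array carried 4 probes for long non-coding RNAs named after TCF4 or PAX5. The lnc-TCF4-1 probe was at 7.20, 7.17 and 7.36 on the control arrays and at 6.98, 6.89 and 6.81 on the knockdown arrays, so the groups did not overlap. Its log2 fold change of -0.35 (limma, n = 3 per group) was not called (adjusted p = 0.190). The 2 probes of lnc-TCF4-5 were not well above background on any array. The lnc-PAX5-2 probe was well above background on 2 of 6 arrays and did not pass the filter on dim probes.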
